A study of Mus musculus with 10 samples.

Results

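The 8 genes Msx1, Msx2, Pax9, Lhx6, Lhx8, Barx1, Pitx1 and Osr2 encode transcription factors that pattern the mesenchyme of the developing tooth. They were chosen by name, and all 8 are among the 18193 genes measured, through 15 probe sets. Where a gene had several probe sets, the one that was brightest on average stands for it, and the 7 others serve as a check. The samples were dental mesenchyme of the lower incisor from wild-type C57BL/6J mice at postnatal day 60. The denervated group holds 5 arrays of incisors from the side operated on 2 weeks before, where a stretch of the inferior alveolar nerve was removed. The contralateral group holds 5 arrays of the incisors on the other side of mice that had the same operation, so no incisor of an unoperated or sham-operated mouse is in the comparison. The inferior alveolar nerve is the sensory supply of the lower teeth, and effects of its absence and of the surgery cannot be told apart here. Arrays of equal number in both groups were taken as pairs, 5 in all. The sex of the mice is not determined, per the labels.

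A tooth forms where jaw epithelium and the neural crest mesenchyme under it exchange signals, and in the mouse incisor part of this exchange continues through life because the tooth keeps growing. Fibroblast growth factors and bone morphogenetic proteins from the epithelium switch on homeobox and paired-box genes in the mesenchyme, and the mesenchyme then makes signals of its own, among them BMP4. Combinations of these factors mark where along the jaw a tooth arises and which shape it takes. The comparison asked whether the adult mesenchyme keeps the same levels of these factors after its nerve has been cut.

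None of the 8 genes differed between denervated and contralateral incisors after adjustment over all genes. The test was limma's with Benjamini-Hochberg adjustment and a threshold of 0.05, which 0.0% of the 18193 genes passed (0 genes), with the smallest adjusted p at 0.790. With the array number as a block, limma also called 0 genes, and its smallest adjusted p was 0.234. Pax9 and Osr2 had the largest differences of the 8, on average 1.33-fold and 1.48-fold higher in the denervated incisors and higher in 5 of 5 pairs of equal number. Msx1, Msx2, Lhx6 and Lhx8 had mean differences of 0.054 to 0.090 log2 units. Pitx1 had a lower mean in the denervated group, most of it from 1 array. Of the 8 genes 7 had a higher mean in the denervated group, beside 55.8% of all genes and 63.9% of the genes with a mean of at least 4, and the median difference was 0.084 for the 8 genes and 0.018 for all genes. The median over the 18193 genes differed between arrays, at 3.21, 3.35, 3.27, 3.14 and 3.07 on denervated arrays 1 to 5, against 3.22, 3.14, 3.02, 3.12 and 3.05 on contralateral arrays 1 to 5. With each array centred on this median, only Pax9, Osr2 and Barx1 kept a higher mean. This centring moved the median difference of all genes to -0.080 and left 26.9% of all genes higher.

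The values are log2 intensities. Over all probe sets tested, which include many dim ones, array medians lay between 1.48 and 1.54. A value under 2 is taken as near the low end of the scale, where signal cannot be told from background. Such medians and values below 0 are lower than RMA usually gives, and the variant used is not known, so the size of differences between low values may depend on it. By this measure Barx1 was near background on all arrays and Pitx1 on 1 array. Lhx6, Pitx1 and Osr2 had means between 2 and 4, and Msx1, Msx2, Pax9 and Lhx8 had means above 4. Probe sets differ in how brightly they bind their target, so the levels of different genes are not ranked. The tissue check found the marker lists of odontoblasts and pulp mesenchyme at readable levels, with 7 of 8 and 9 of 9 measured genes at a mean of at least 4. Dental epithelium was also in the samples, with 11 of 11 measured markers at that level, and no skeletal muscle marker reached it. Of the markers of periodontal ligament and tendon 4 of 8 reached it, and of those of bone and osteocytes 4 of 7. Denervated array 3 stood apart: enamelin (Enam) was at 0.82 there, against 8.81 to 9.97 on the 4 other denervated arrays and 9.37 to 9.80 on the contralateral ones. Denervated array 2 had the highest Schwann cell list sum, 28.3, against 13.9 to 17.6 on the contralateral arrays. It also had the lowest odontoblast list sum, 72.6, against 77.4 to 78.3 on the contralateral arrays, and the odontoblast gene Dmp1 was at 8.98 there, against 11.21 to 11.53 on the contralateral arrays. Denervated array 3 was above every contralateral array on the Schwann cell score as well (0.47, against at most 0.13). In such whole-tissue samples, fewer cells of a type and less RNA per cell cannot be told apart.

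**Figure D1:**
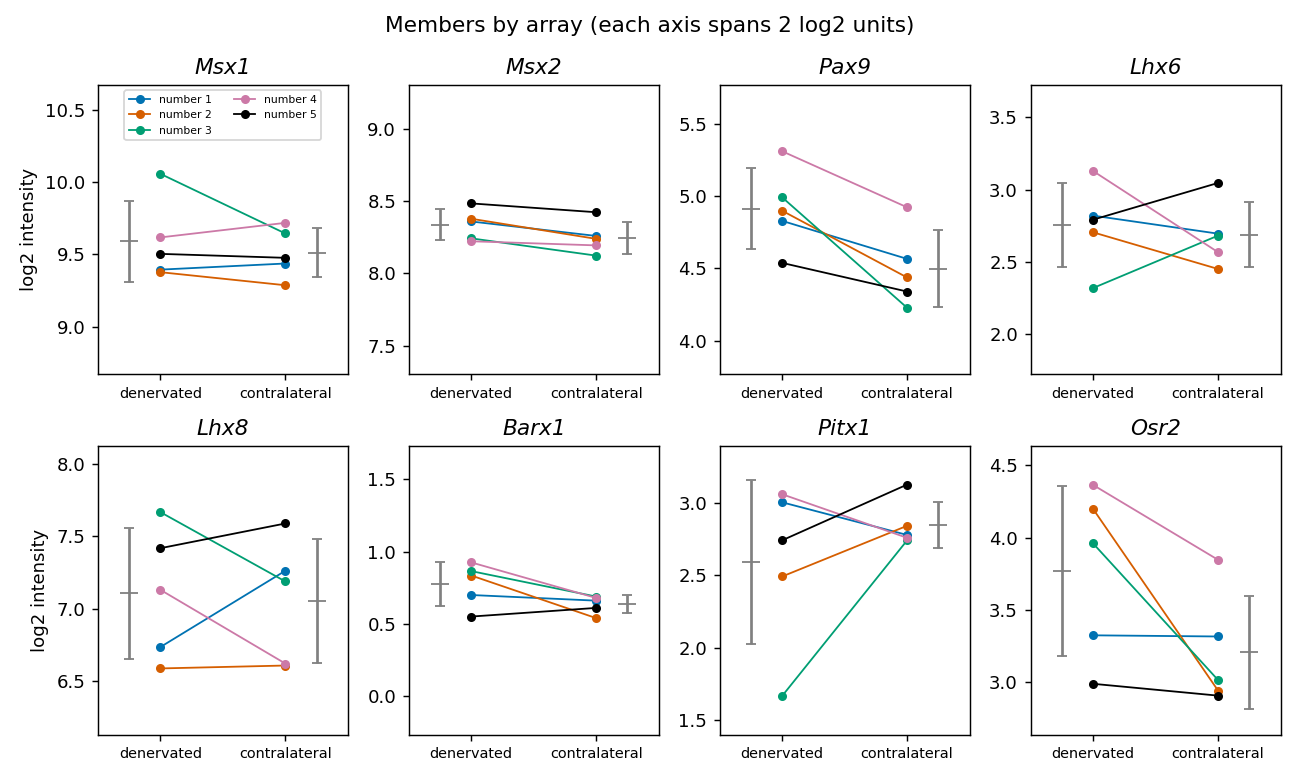
Log2 intensity of each of the 8 genes on the 10 arrays, with lines joining arrays of equal number. Grey marks give the mean and SD of each group (n = 5), and each axis spans 2 log2 units. Pax9 and Osr2 lie higher on the denervated side for every number, Msx2 by a small step, and Pitx1 has a single low array, denervated 3, at 1.67.

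The reference sequences upstream of an annotated start are shown for the 4 genes measured well above background, since these carry the readable values. They were taken from the RefSeq promoter table on GRCm38.p6, which matched 6 of the 8 genes (not Pitx1 or Osr2). Capitals mark TAATT or its reverse complement AATTA, the core letters that homeodomain proteins of the MSX and LHX kind commonly bind. Each line is the 250 bases before a start, read in the direction of the gene. The Pax9 window lies inside the span of that gene, chr12:56691693-56712824, so it stands before an internal start.
Msx1 promoter, chr5:37824586-37824835, minus strand: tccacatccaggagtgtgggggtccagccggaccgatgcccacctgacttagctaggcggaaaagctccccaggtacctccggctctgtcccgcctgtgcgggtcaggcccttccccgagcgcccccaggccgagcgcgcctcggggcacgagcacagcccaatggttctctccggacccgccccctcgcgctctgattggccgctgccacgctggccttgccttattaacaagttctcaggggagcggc
Msx2 promoter, chr13:53472781-53473030, minus strand: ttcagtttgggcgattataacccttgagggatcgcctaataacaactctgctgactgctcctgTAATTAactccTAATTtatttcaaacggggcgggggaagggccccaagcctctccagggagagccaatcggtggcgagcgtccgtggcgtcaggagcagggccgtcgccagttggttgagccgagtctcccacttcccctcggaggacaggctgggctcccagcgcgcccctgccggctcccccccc
Pax9 promoter, chr12:56695221-56695470, plus strand: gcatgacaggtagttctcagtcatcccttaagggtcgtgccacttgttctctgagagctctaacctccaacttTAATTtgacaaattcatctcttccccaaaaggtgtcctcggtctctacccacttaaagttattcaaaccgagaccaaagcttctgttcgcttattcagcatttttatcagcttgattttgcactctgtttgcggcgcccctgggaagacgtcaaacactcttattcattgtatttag
Lhx8 promoter, chr3:154330561-154330810, minus strand: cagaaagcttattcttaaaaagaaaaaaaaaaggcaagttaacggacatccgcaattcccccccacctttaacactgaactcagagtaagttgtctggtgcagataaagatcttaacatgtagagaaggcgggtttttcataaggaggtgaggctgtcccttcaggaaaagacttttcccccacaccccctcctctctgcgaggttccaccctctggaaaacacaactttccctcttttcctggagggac
The Msx2 window held 3 matches, 2 of them overlapping in a single palindrome, the Pax9 window 1, and those of Msx1 and Lhx8 held 0. At least 1 match on either strand stood in 25.4% of the 27025 windows of the same length in the table. The GC content was 68% for Msx1, 61.6% for Msx2, 43.6% for Pax9 and 46% for Lhx8, beside a median of 52% for all windows. A match describes the letters and says nothing of which factor binds there in these cells.

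Msx1 encodes a homeobox repressor that the mouse tooth bud needs to develop further and that maintains Bmp4 in its mesenchyme. It is at chr5:37820491-37824585 on GRCm38.p6. Its log2 intensity was 9.39, 9.38, 10.06, 9.62 and 9.50 on denervated arrays 1 to 5, against 9.44, 9.29, 9.64, 9.72 and 9.48 on contralateral arrays 1 to 5. The groups overlapped, and denervated array 3 was the highest of the 10. The difference was 0.078 ± 0.13 (SE), with a 95% interval of -0.22 to 0.37, which spans 0.860-fold to 1.29-fold. Limma's adjusted p was 0.914. The denervated array was the higher in 3 of 5 pairs, and without denervated array 3 the difference was -0.039. The other probe set of Msx1 had 5.80 to 6.93 on the denervated arrays, against 5.82 to 6.58 on the contralateral arrays, and gave 0.15 ± 0.20, also higher in 3 of 5 pairs.

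Msx2 encodes the close relative of MSX1, made in mesenchyme and in enamel epithelium of the mouse tooth, at chr13:53466881-53472780. It had 8.36, 8.38, 8.24, 8.22 and 8.48 on the denervated arrays, against 8.26, 8.24, 8.12, 8.19 and 8.42 on the contralateral arrays. Each denervated array was above its partner of equal number, by 0.028 to 0.14, while the groups overlapped. The mean difference was 0.090 ± 0.078 (95% interval -0.082 to 0.26, adjusted p 0.832). The spread of the 5 pair differences, an SD of 0.045, was among the smallest of the 7919 genes with a mean of at least 4, of which 0.972% had a smaller one. The direction depended on the scaling: centred on array medians the difference was -0.0088 and 3 of 5 pairs were higher. Under quantile normalization it was 0.077 and 5 of 5 pairs were higher. The other probe set of Msx2 was near the low end, with a mean of 1.24, and gave -0.015 ± 0.12.

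Pax9 encodes a paired-box factor of the neural crest mesenchyme, without which mouse tooth buds stop growing, and lies at chr12:56691693-56712824. Its log2 intensity was 4.83, 4.90, 4.99, 5.31 and 4.54 on denervated arrays 1 to 5, against 4.57, 4.44, 4.23, 4.92 and 4.34 on contralateral arrays 1 to 5. Within a number the denervated array was always the higher, by 0.20 to 0.76, but the groups overlapped: denervated array 5 was below contralateral array 4. The means were 4.91 ± 0.28 and 4.50 ± 0.27 (SD, 5 arrays each), a difference of 0.41 ± 0.16 (SE). That is 1.33-fold, with a 95% interval of 1.05 to 1.69. Limma's unadjusted p was 0.0217 and its adjusted p 0.790; with the array number as a block they were 0.00237 and 0.355, and the interval of the fold was 1.15 to 1.55. An unadjusted p under 0.05 was reached by 6.21% of all genes without the block (1129 genes, 4.1% higher and 2.11% lower in the denervated group). With the block it was reached by 9.92% (6.99% higher and 2.93% lower). Of the 8 members Pax9 reached it without the block, and Pax9 and Osr2 with it. The remaining probe sets of Pax9 lay near the low end, with means of 1.20 and 1.28, and differed by 0.10 ± 0.075 and 0.16 ± 0.086 in the same direction, each in 4 of 5 pairs. No single array decided the direction: with 1 array left out at a time the difference lay between 0.32 and 0.52.

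Osr2 encodes a zinc finger factor that in mice keeps teeth to a single row by opposing MSX1 and limiting BMP4, at chr15:35296098-35303305. It had 3.32, 4.20, 3.96, 4.36 and 2.99 on denervated arrays 1 to 5, against 3.32, 2.94, 3.01, 3.85 and 2.91 on contralateral arrays 1 to 5. Denervated arrays 2, 3 and 4 were above all contralateral arrays, and denervated arrays 1 and 5 were 0.0080 and 0.082 above their partners. The means were 3.77 ± 0.59 and 3.21 ± 0.39 (SD, 5 arrays each), a difference of 0.56 ± 0.27 (SE) or 1.48-fold (95% interval 0.973 to 2.24). Limma's adjusted p was 0.790, and 0.435 with the array number as a block, where the interval of the fold was 1.10 to 1.98. Without denervated arrays 2 and 3 the difference was 0.35, and without both arrays of numbers 2 and 3 it was 0.20. The other Osr2 probe set was near the low end, with a mean of 0.64, and gave -0.073 ± 0.084.

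Higher values in 5 of 5 pairs were found for 3 of the 8 genes, Msx2, Pax9 and Osr2, and for 6.58% of all genes; no member was lower in 5 of 5, as 3.8% of all genes were (10.4% in either direction). With Barx1, 4 of the 8 were higher in at least 4 of 5 pairs, beside 25.7% of all genes. Pax9 and Osr2 kept 5 of 5 under median centring, where 2.76% of all genes were higher in 5 of 5. Under quantile normalization Msx2, Pax9 and Osr2 kept it, beside 5.28% of all genes. No member had groups that did not overlap, which 0.528% of genes showed as higher and 0.423% as lower in the denervated group.

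Barx1 encodes a homeobox factor that marks the molar-forming region of the embryonic mouse jaw and is kept off where incisors form. It is at chr13:48663036-48666507. Its only probe set had 0.70, 0.84, 0.87, 0.93 and 0.55 on the denervated arrays, against 0.66, 0.54, 0.69, 0.68 and 0.61 on the contralateral arrays. All 10 values lie at the low end of the scale, so the difference of 0.14 ± 0.080 (adjusted p 0.798, higher in 4 of 5 pairs) is between values that cannot be told from background.

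Pitx1 encodes a homeobox factor of the embryonic lower jaw and hindlimb, made in the mouse in both dental epithelium and jaw mesenchyme, at chr13:55825044-55836190. It had 3.01, 2.49, 1.67, 3.06 and 2.74 on the denervated arrays, against 2.78, 2.84, 2.74, 2.76 and 3.13 on the contralateral arrays. Denervated array 3 was the lowest of the 10, denervated array 2 the next, and the rest overlapped. The difference was -0.26 ± 0.23 (95% interval -0.76 to 0.25, adjusted p 0.835), and it was -0.025 without denervated array 3. The other probe set was lowest on the same array, at 1.76, and gave -0.19 ± 0.22. On that array the dental epithelium list was also lowest: its 11 markers summed to 79.8, beside up to 106 on the other denervated arrays and 104.8 to 108 on the contralateral arrays. All 11 markers had a lower mean in the denervated group, and none was at 0. The pair 3 difference was -1.08 for Pitx1 and -2.30 for the epithelium score, in which each marker is taken relative to its own mean over the arrays and the markers are averaged. The part of the epithelium in the Pitx1 values was not tested.

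**Figure D2:**
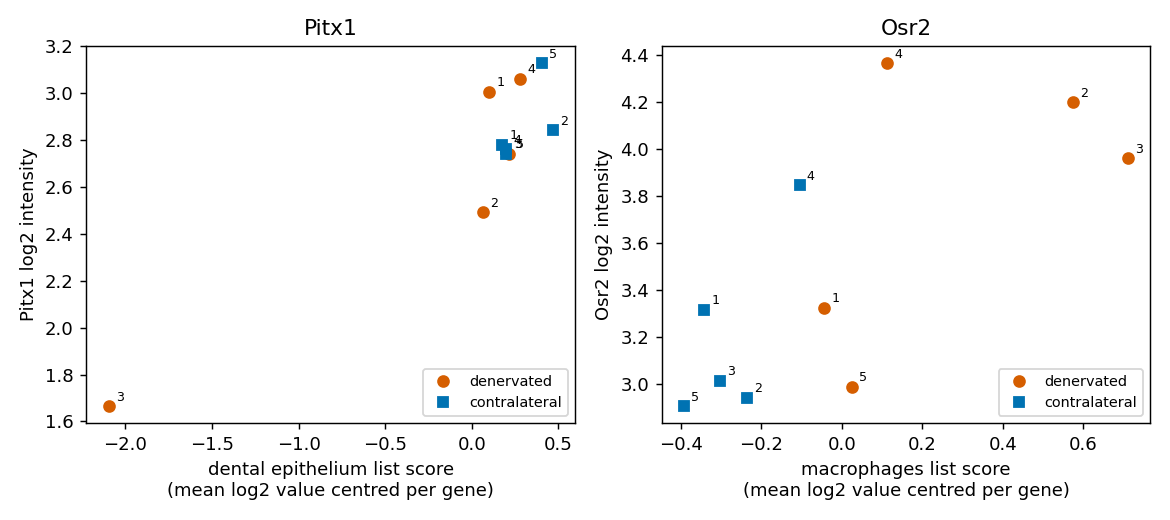
Log2 intensity of Pitx1 against the dental epithelium list score, and of Osr2 against the macrophage list score, on each array, with the array number beside each point. Denervated array 3 is lowest for Pitx1 (1.67) and for the epithelium score, and on the macrophage score the 5 denervated arrays all lie to the right of the 5 contralateral arrays.

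Lhx6 and Lhx8 encode LIM-homeobox factors that overlap in function, and mice lacking both fail to form molars. Lhx6 is at chr2:36081950-36105992. It had 2.82, 2.70, 2.32, 3.13 and 2.79 on the denervated arrays, against 2.69, 2.45, 2.68, 2.57 and 3.05 on the contralateral arrays. The groups overlapped throughout, and the difference of 0.065 ± 0.15 (95% interval -0.26 to 0.39, adjusted p 0.939) was -0.029 without denervated array 4. The other Lhx6 probe set, with a mean of 0.59, gave -0.053 ± 0.064.

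Lhx8 is at chr3:154306288-154330560 and had 1 probe set. Its values were 6.73, 6.59, 7.67, 7.13 and 7.42 on the denervated arrays, against 7.26, 6.61, 7.19, 6.62 and 7.59 on the contralateral arrays. Each group covered about 1 log2 unit, from 6.59 to 7.67 in the denervated and from 6.61 to 7.59 in the contralateral arrays. The difference was 0.054 ± 0.24 (95% interval -0.48 to 0.59, adjusted p 0.968), with 2 of 5 pairs higher, and its sign turned without denervated array 3 or 5 or contralateral array 2 or 4 (from -0.086 to -0.023). The SD over the 10 arrays, 0.42, was larger than for 92.4% of the genes with a mean of at least 4, whose median was 0.18. The SD of the 5 pair means, 0.38, was larger than for 94.2% of them.

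**Figure D3:**
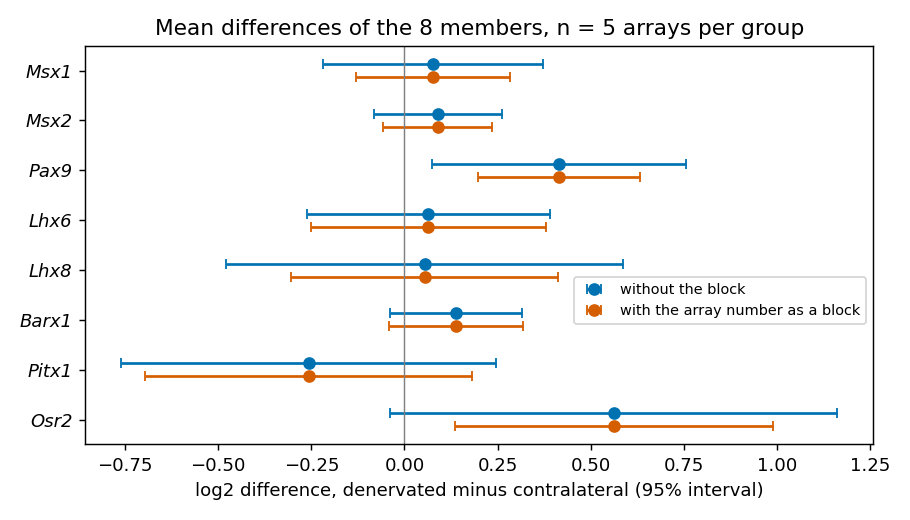
Mean log2 difference, denervated minus contralateral, of the 8 genes with 95% intervals from limma, without the block and with the array number as a block (5 arrays per group). The intervals of Pax9 exclude 0 in both fits and those of Osr2 only with the block; none of these passed after adjustment over all genes.

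Across the 10 arrays the 8 genes did not vary as a single group. These correlations are a description over arrays that share a common normalization and, within a number, were taken as paired, among 28 pairs of genes. Pax9 and Osr2 were the pair most alike, with Pearson's r 0.92 (Spearman's rho 0.89), 0.90 without the 2 arrays farthest from the median of Pax9, and 0.94 without denervated arrays 2 and 3. Both were highest in number 4 on either side of the jaw, at 5.31 and 4.92 for Pax9 and at 4.36 and 3.85 for Osr2 (denervated and contralateral). Of the 5041 genes with a mean of at least 4 and an SD of at least 0.15, 7 were at least as like Pax9 as Osr2 was. This count includes Pax9 itself. Barx1 followed Osr2 and Pax9 with r 0.90 and 0.80 although its values are near background. Lhx6 and Pitx1 were alike with r 0.75, or 0.53 without the 2 arrays farthest from the median of Lhx6. Msx1 and Pitx1 had r -0.70, a value that rested on single arrays, since without the 2 arrays farthest from the median of Msx1 it was 0.20. The paralogs Msx1 and Msx2 had r -0.39, with 0.60 over the pair differences and -0.66 over the pair means. Lhx6 and Lhx8 had r 0.15, a value that also depended on a few arrays. It was 0.70 without the 2 arrays farthest from the median of Lhx6 and 0.62 without denervated arrays 2 and 3.

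**Figure D4:**
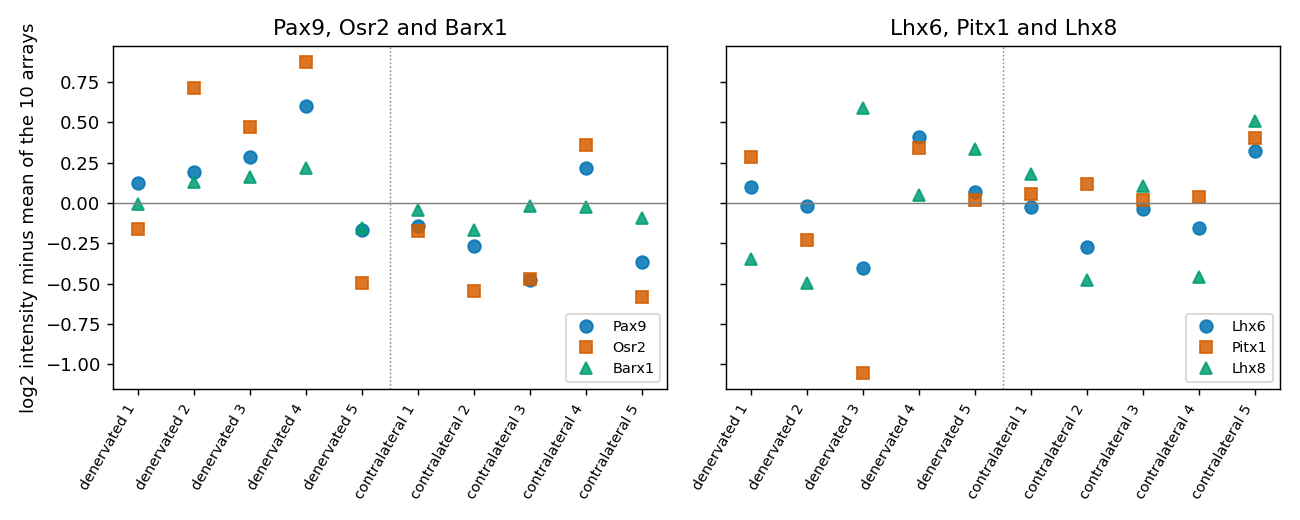
Log2 intensity minus the gene's mean over the 10 arrays, by array, for Pax9, Osr2 and Barx1 on the left and Lhx6, Pitx1 and Lhx8 on the right. Osr2 is highest on denervated arrays 4, 2 and 3 and Pax9 on denervated arrays 4 and 3, followed by contralateral array 4 for Pax9, and Pitx1 is low on denervated array 3.

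The genes whose profiles were most like a member's were ranked by Pearson's r over the 10 arrays among genes with a mean of at least 4 and an SD of at least 0.15. For Pax9 they were Tmem50b (r 0.97), Septin8 (0.94) and Hdac1 (0.93), each higher in 5 of 5 pairs. For Osr2 they were Ctnnbip1 (0.94), which encodes an inhibitor of beta-catenin, Plppr1 (0.93) and Dcaf12l1 (0.92). For Msx1 they were Galnt4, Rcn3 and Herpud1 (0.94, 0.93 and 0.91), and for Msx2 Tyro3, Nemf and Ctdp1 (0.94, 0.91 and 0.90). For Lhx8 they were B3gnt9, Heatr5a and Pcolce (0.92, 0.91 and 0.89), and for Lhx6 Pltp, Slc4a4 and Stim2 (0.91, 0.89 and 0.87). For Pitx1 they were Lgi2, Stk26 and Slc39a8 (0.97 each). Denervated array 3, at 1.67, lay farthest from the Pitx1 mean of 2.72, so these r values depend strongly on that array. They were not computed without it. Each value is the top of a ranking of 5040 or 5041 genes over 10 arrays and is given with no test.

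Markers of other cell types also differed between the groups, though their pair differences did not all follow those of Pax9 and Osr2. Beside the counts given here, 55.8% of all genes and 63.9% of those with a mean of at least 4 were higher in the denervated group. All 8 macrophage markers had a higher mean in the denervated group and summed to 51.0 to 57.1 there, against 48.2 to 50.5 in the contralateral group. The macrophage score differed by 0.30, 0.81, 1.02, 0.22 and 0.42 in pairs 1 to 5, while Osr2 differed by 0.01, 1.26, 0.95, 0.52 and 0.08 and Pax9 by 0.26, 0.46, 0.76, 0.39 and 0.20. The pulp mesenchyme list had 8 of 9 measured genes higher, with sums of 62.7 to 67.8 on the denervated arrays, against 61.1 to 64.2 on the contralateral arrays. Its score differed by 0.10, 0.65, 0.41, 0.0088 and 0.25 in pairs 1 to 5. Of the markers of pericytes and smooth muscle, 7 of 8 were higher, with sums of 44.1 to 52.4 on the denervated arrays, against 42.1 to 45.6 on the contralateral arrays. Their score differed by 0.11, 1.07, 0.76, 0.15 and -0.19 in pairs 1 to 5. Endothelial markers were higher in 8 of 8, with score differences of -0.11, 0.63, 0.66, -0.11 and -0.092 in pairs 1 to 5. Schwann cell markers were higher in 5 of 6, with score differences of -0.33, 2.04, 0.96, 0.0050 and -0.060. The endothelial and Schwann cell scores, like that of pericytes and smooth muscle, differed most in pairs 2 and 3, the pairs in which Osr2 differed most. Pair 4 was unlike this: Osr2 differed by 0.52 and Pax9 by 0.39 there, but the pulp mesenchyme score by 0.0088 and the endothelial score by -0.11. The macrophage score differed least in that pair, by 0.22. Markers of cycling cells were higher in 7 of 7, with sums of 38.8 to 41.6 on the denervated arrays, against 34.1 to 39.8 on the contralateral arrays. Odontoblast markers were lower in 7 of 8, with sums of 72.6 to 78.8 on the denervated arrays, against 77.4 to 78.3 on the contralateral arrays. Markers of periodontal ligament and tendon were higher in 6 of 8, with score differences of -0.0050, 0.16, 0.26, 0.15 and 0.45 in pairs 1 to 5. Those of bone and osteocytes were higher in 3 of 7 and lower in 4. No marker of these lists was at 0, and their part in the Pax9 and Osr2 values was not tested.

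Signals and factors known to act with the 8 genes in tooth mesenchyme were followed in a list of 59 measured partners. This list is not separate from the marker lists. Prrx1, Prrx2, Twist1, Foxd1, Dlx5 and Tnc are also pulp mesenchyme markers. Shh is also a marker of dental epithelium, Gsc of odontoblasts and Dkk1 of bone and osteocytes. Of the 59, 0 passed over all genes in either direction. By their means 37 were higher and 22 lower in the denervated group, with a median of 0.048. Beside this, 55.8% of all genes and 63.9% of those with a mean of at least 4 were higher. After median centring 25 partners were higher and 34 lower, beside 26.9% of all genes higher and 33.1% of those with a mean of at least 4. An unadjusted p under 0.05 from limma was found for 14 of 59 (23.7%), 11 higher and 3 lower, beside 6.21% of all genes. The list was chosen with earlier results of these data known, so these shares are a description and no test of it. The levels also differ, since 12 of the 59 had a mean below 2, against 40.7% of all genes. Alx1, Tnc and Nog were higher and Wnt10a lower without overlap of the groups, as 0.528% of all genes were higher and 0.423% lower. Nog, a BMP antagonist gene named here after its values were seen, was near background with 1.169 to 1.508 on the denervated arrays, against 0.907 to 1.168 on the contralateral arrays.

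Among ligands, Bmp4, the signal that MSX1 maintains and OSR2 limits, had 8.11, 8.25, 7.94, 7.95 and 7.84 on denervated arrays 1 to 5, against 8.25, 8.34, 8.08, 7.99 and 8.04 on contralateral arrays 1 to 5. It was lower in 5 of 5 pairs, by 0.037 to 0.20, with overlapping groups and a difference of -0.12 ± 0.098 (adjusted p 0.827). Wnt10a, an epithelial and odontoblast Wnt ligand, had 6.63 to 7.43 on the denervated arrays, against 7.46 to 7.57 on the contralateral arrays. Its groups did not overlap, and the difference was -0.34 ± 0.13 (adjusted p 0.790). It was lowest on denervated array 2, where the odontoblast list was also lowest. The odontoblast score differed by -0.17, -0.69, 0.10, -0.15 and -0.06 in pairs 1 to 5, while Wnt10a differed by -0.30, -0.82, -0.36, -0.10 and -0.14. The part of the odontoblasts in the Wnt10a values was not tested. Bmp2, another BMP ligand gene, and Inhba, which encodes the activin subunit beta A of dental mesenchyme, differed by 0.25 ± 0.094 and 0.41 ± 0.17, each higher in 4 of 5 pairs. Shh, the epithelial hedgehog ligand, differed by -0.33 ± 0.19 and was lower in 5 of 5 pairs, with 9.69 on denervated array 3 and 10.54 to 10.83 on the other denervated arrays, against 10.64 to 10.96 on the contralateral arrays. The dental epithelium list, of which Shh is a member, was also lowest on denervated array 3.

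Among cofactors and antagonists, Ldb2, which encodes a partner that LIM-homeobox proteins use to assemble complexes, differed by 0.55 ± 0.23 and was higher in 4 of 5 pairs. The Wnt inhibitor genes Dkk1 and Frzb differed by -0.36 ± 0.14 and 0.28 ± 0.15. Sfrp2, a Wnt antagonist gene that OSR2 is linked to in mouse tooth buds, had 7.71, 10.54, 10.35, 8.32 and 8.47 on the denervated arrays, against 9.18, 7.28, 6.61, 7.84 and 9.33 on the contralateral arrays. Its pair differences ran from -1.48 to 3.73 around a mean of 1.03 ± 0.66, and it was lower in pairs 1 and 5.

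Among transcription factors, the homeobox gene Alx1 had 6.59 to 7.13 on the denervated arrays, against 6.21 to 6.54 on the contralateral arrays, without overlap. Prrx2 and Foxf2, factors of craniofacial mesenchyme, differed by 0.56 ± 0.20 and 0.41 ± 0.15, and Dlx5 by 0.18 ± 0.092. Dlx1 and Dlx2, homeobox genes of jaw mesenchyme, differed by 0.048 ± 0.10 and -0.044 ± 0.11, and the sign of Dlx1 turned after median centring. Lef1, a transcription factor of the Wnt pathway, differed by -0.0036 ± 0.14.

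Matrix genes of condensed dental mesenchyme were higher on average in 4 of 4, beside 63.9% of the genes with a mean of at least 4. Of the 4, 3 were higher in 5 of 5 pairs. Ncam1 was not, with -0.41, 0.60, 1.02, 0.11 and -0.47 in pairs 1 to 5. Tnc (tenascin C) was at 10.71 to 11.06 on the denervated arrays, against 10.46 to 10.65 on the contralateral arrays. Its difference was 0.26 ± 0.080 (adjusted p 0.790), in 5 of 5 pairs. Sdc1 (syndecan 1) differed by 0.24 ± 0.079, also in 5 of 5 pairs and in 3 of 5 after median centring.

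Relatives of the 8 genes were mostly near background. Of 9 measured paralogs 7 had a mean below 2, among them Pax1, the relative of Pax9, and Osr1, the relative of Osr2. Pax1 averaged 0.83 ± 0.085 in denervated incisors, against 0.76 ± 0.12 in contralateral ones (SD, 5 arrays each). Osr1 averaged 0.66 ± 0.17 in denervated incisors, against 0.65 ± 0.12 in contralateral ones. Isl1, a LIM-homeobox gene of incisor epithelium, was the only paralog with a mean of at least 4, at 6.97 ± 0.62 in denervated and 7.34 ± 0.18 in contralateral incisors. Its difference of -0.38 ± 0.25 was largest in pair 3, where it was -1.24. Barx2 lay between, at 2.51 ± 0.42 in denervated and 2.70 ± 0.40 in contralateral incisors.

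**Figure D5:**
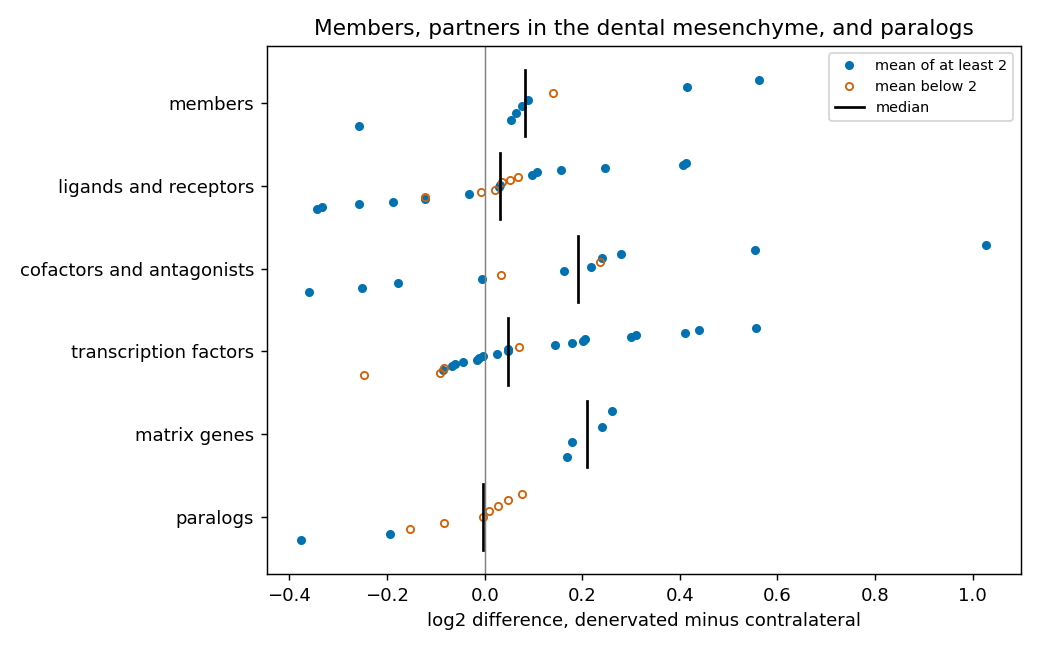
Mean log2 difference, denervated minus contralateral, of each of the 8 genes, of their partners by role and of their paralogs. Filled points have a mean of at least 2, open points lie near background and black lines are medians. The 4 matrix genes lie above 0, and the paralogs lie on either side of it.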

How the data were processed

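For every array the authors deposited a log2 intensity for each probe set, made with RMA, per the submitters' processing notes; its version, variant and further steps are not given in the sources used here. The log2 scale was read from the values, which ran from -0.16 to 13.2. Of 45101 probe sets 64 controls were left out, and of the 45037 others 34945 name 1 gene in the supplied platform annotation. The probe set with the highest mean stands for a gene, which gave 18193 genes. They were fitted with limma 3.58.1 (lmFit, eBayes) in R 4.3.3 without a block, adjusted by Benjamini-Hochberg over all genes; signed values are denervated minus contralateral, errors of differences are standard errors. The fit was tested on simulated data with independent noise and no effect of the number, unlike paired arrays. Of true differences of 0.5 log2 units it recovered 46% without the block and 32% with it. Of those of 1 it recovered 92% and 86%. A difference of the size seen for Pax9 or Osr2 could thus be missed. The number of arrays limits the precision. Per the series' design text both incisors of 5 mice were used, but no label ties a number to a mouse. Deviations from the group means gave r of 0.18 to 0.57 for arrays of equal number (5 pairs) and of -0.41 to 0.22 for other combinations (20 pairs), so equal numbers were taken to pair arrays. P-values from the fit without the block set a difference against the spread between arrays of a group and ignore the pairing. Those with the block set it against the spread of the pair differences. Both concern these samples only.

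The members, lists and rule for naming partners (per role the 4 smallest p among means of at least 4, or 2 for matrix genes, and Bmp4, Dlx1, Dlx2, Lef1, Osr1 and Pax1 whatever their values) were chosen with earlier results of these data known. For likeness the 3 genes with the highest r were named. Alternatives were the array number as a block, other scalings, probe sets, array weights, a filter on low values and left-out arrays; those without both arrays of a number were added after seeing the data.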

Additional observations from a re-analysis of the deposited data

Results flagged for a closer look

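Pitx1 on contralateral array 5 was at 3.13, above the 4 other contralateral arrays at 2.74 to 2.84. The gap to the nearest of them was 0.739 of the group's whole range, beyond the limit of 0.71 for 5 values. It was the only such case among 24 groups of 5 values tested (8 genes in the denervated arrays, the contralateral arrays and the pair differences), and chance alone gives about 1 in 20 such groups.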

How the results depend on the processing

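With 1 array left out at a time the differences lay between 0.32 and 0.52 for Pax9, 0.41 and 0.76 for Osr2, 0.053 and 0.13 for Msx2, 0.10 and 0.20 for Barx1, -0.37 and -0.025 for Pitx1, -0.039 and 0.13 for Msx1, -0.029 and 0.17 for Lhx6 and -0.086 and 0.19 for Lhx8. The fit with the replicate block, which takes equal numbers as pairs, called 0 genes and changed no call for the genes described. No member passed in any alternative run, nor did a partner. The count of genes past the threshold was 0 in each except 1, where Fcna, a lectin gene, passed with an adjusted p of 0.0270 in the fit with the replicate block and without both arrays of number 4 (1 gene of 18193). Differences turned sign as follows. Array medians as the centre gave -0.021 for Msx1, -0.0088 for Msx2, -0.034 for Lhx6 and -0.044 for Lhx8. With this centring 3 of 8 members were higher in place of 7, beside 26.9% of all genes in place of 55.8%. Quantile normalization gave -0.020 for Lhx6 and array weights -0.029 for Lhx8. Further probe sets gave -0.053 for Lhx6, -0.073 for Osr2 and -0.015 for Msx2. Without denervated arrays 2 and 3 Msx1 was at -0.0073 and Pitx1 at 0.086. The following alternatives were chosen after seeing the data. Without both arrays of number 3 Msx1 was at -0.0063 and Lhx8 at -0.052, with or without the block. Without both arrays of numbers 2 and 3 Msx1 was at -0.039, Lhx8 at -0.063 and Pitx1 at 0.047. With the block and without both arrays of number 4 Lhx6 and Lhx8 were each at -0.060. The cause was not tested. Values near the low end of the scale limit what can be said of Barx1, of Pitx1 on denervated array 3 and of the further probe sets of Msx2, Pax9, Lhx6 and Osr2.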
